A study of Mus musculus with 6 samples.

Results

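Oxidative phosphorylation is the supply of ATP from electrons passed along complexes I to IV of the inner mitochondrial membrane and from the proton gradient that complex V, the ATP synthase, uses. The nuclear genes among its subunits were taken here as the gene symbols of the count tables that match a fixed naming pattern for NADH dehydrogenase, succinate dehydrogenase, cytochrome bc1, cytochrome c oxidase and ATP synthase subunits. The pattern gave 82 of the 49997 genes in the tables, 37 for complex I, 4 for complex II, 8 for complex III, 16 for complex IV and 17 for complex V. Further subunits of complexes I, III, IV and V are encoded in mitochondrial DNA, whereas complex II is built from nuclear genes alone. The pattern also leaves out a few nuclear genes such as Ndufab1, and both kinds are described separately below. Photoreceptors carry a dense mass of mitochondria in the inner segment, next to the outer segment, and are among the most energy-demanding neurons. Each complex is assembled from many subunits in fixed proportion.

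The RNA came from mCherry-positive photoreceptors sorted from the retinas of Rosa26-Cas9 mice, a strain in which all cells make the Cas9 nuclease, 6 months after an adeno-associated virus was injected under the retina. Every group shares the Rosa26-Cas9 genotype, the virus with the 7m8 capsid, and an mCherry reporter under a human GRK1 promoter, which limits the reporter to photoreceptors. In 3 samples the virus carried a guide RNA against Nr2e3, the gene of a nuclear receptor of rods (guide libraries 1 to 3), and in 3 it carried a non-targeting control guide (control libraries 1 to 3). Each sample held about 100000 cells from the 2 retinas of 1 mouse. For the age at injection, the series text gives postnatal day 21 and the treatment protocol 4 weeks. Guide library 1 came from a male, guide libraries 2 and 3 from females, and all 3 control libraries from males. Guide and sex are therefore partly confounded, and the only male guide library is also the one that differs most for several members below. Only virus-carrying cells were sorted, and the share of their Nr2e3 alleles that were edited is not read by these counts.

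Gene counts ran from 24705561 to 34286248 per library. Nr2e3 itself was at 1756, 1572 and 1507 CPM, counts scaled by the normalised library size, in control libraries 1 to 3 and at 2094, 1906 and 2244 CPM in guide libraries 1 to 3. Its log2 fold change was 0.37 (SE 0.13, adjusted p = 0.716 in edgeR), and a whole-gene count does not read small insertions or deletions, so it does not check the labels. Rod markers summed to 181372 to 229606 CPM in control and 198477 to 214899.6 CPM in guide libraries, the most of the marker lists used. Cone markers summed to 7874, 8324 and 3806 CPM in control libraries 1 to 3 and 13386 to 17246 CPM in guide libraries. That higher sum was carried by Gnat2, Pde6h and Pde6c (log2 fold changes 3.30, 1.97 and 2.79), while 6 of the 10 cone markers, both opsins included, had values below 0, the list's median was -0.51 and none was called. Control library 3 stood apart in markers of other cells. Its 11 microglia markers summed to 296 CPM against 32.1 and 34.3 CPM in the other controls and 35.7 to 177 CPM in guide libraries, and its photoreceptor injury genes to 334 CPM against 37.8 and 44.3 CPM, and 44.2 to 111 CPM in guide libraries. All 11 microglia markers and 8 of the 9 injury genes tested were highest among controls in control library 3, and none of either list was at 0 in all libraries. Amacrine cell markers summed to 61.5 to 336 CPM and bipolar cell markers to 133 to 255 CPM over the 6 libraries. All 8 amacrine markers were lowest among controls in control library 3. Muller glia markers summed to 721, 686 and 1122 CPM in control libraries 1 to 3 and 803 to 1278 CPM in guide libraries. The high sum of control library 3 was carried by Clu at 938 CPM, while 8 of the 10 Muller markers were lowest among controls there. Pigment epithelium markers summed to 21.9, 22.01 and 5.24 CPM in control libraries 1 to 3 and to 3.22, 1.83 and 4.56 CPM in guide libraries 1 to 3, each guide library below each control library. The part of these cells in the results below was not tested.

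Before the levels, the start regions of a few members show what sequence features they share. RefSeq promoter windows of build GRCm38.p6, from 250 bases before to 50 bases after the start, were given for 68 of the 82 members and for 27025 genes in all. The 4 motifs searched were the core of the nuclear respiratory factor 1 site (GCATGCGC), an ETS or GABP site (CCGGAAG), a YY1 site (AAGATGGC), each on both strands, and the TATA box (TATAAA, on the strand of the gene, before the start). No motif contains another, and matches of different motifs may overlap. The windows below were chosen to show, for each complex, a member with a match upstream of its start, with Sdha added as a member of complex II that holds none. Capitals mark the matched letters, and 250 bases before the start are given, 5′ to 3′ on the strand of the gene.
Ndufa11 (complex I, chr17:56717512-56717761, plus strand): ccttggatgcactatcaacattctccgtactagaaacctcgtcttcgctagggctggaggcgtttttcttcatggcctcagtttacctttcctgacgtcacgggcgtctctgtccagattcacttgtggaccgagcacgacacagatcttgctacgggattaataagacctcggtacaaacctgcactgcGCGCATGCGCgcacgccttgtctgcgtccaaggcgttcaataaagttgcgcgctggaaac
Sdhb (complex II, chr4:140961021-140961270, plus strand): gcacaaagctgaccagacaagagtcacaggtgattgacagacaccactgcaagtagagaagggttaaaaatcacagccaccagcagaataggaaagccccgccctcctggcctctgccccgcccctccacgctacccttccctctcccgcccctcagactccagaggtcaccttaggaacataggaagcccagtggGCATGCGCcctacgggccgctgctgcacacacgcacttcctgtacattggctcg
Sdha (complex II, chr13:74350241-74350490, minus strand): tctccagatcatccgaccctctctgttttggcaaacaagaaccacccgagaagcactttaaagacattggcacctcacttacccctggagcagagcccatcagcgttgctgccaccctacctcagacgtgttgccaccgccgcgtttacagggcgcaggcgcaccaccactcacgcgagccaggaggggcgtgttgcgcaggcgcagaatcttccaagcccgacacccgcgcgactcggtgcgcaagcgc
Uqcrh (complex III, chr4:116075071-116075320, minus strand): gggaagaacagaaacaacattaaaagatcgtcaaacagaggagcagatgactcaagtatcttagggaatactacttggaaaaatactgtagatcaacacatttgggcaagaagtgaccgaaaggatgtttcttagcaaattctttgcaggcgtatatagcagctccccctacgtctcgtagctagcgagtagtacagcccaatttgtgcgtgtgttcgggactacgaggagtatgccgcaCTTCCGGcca
Cox6a1 (complex IV, chr5:115348959-115349208, minus strand): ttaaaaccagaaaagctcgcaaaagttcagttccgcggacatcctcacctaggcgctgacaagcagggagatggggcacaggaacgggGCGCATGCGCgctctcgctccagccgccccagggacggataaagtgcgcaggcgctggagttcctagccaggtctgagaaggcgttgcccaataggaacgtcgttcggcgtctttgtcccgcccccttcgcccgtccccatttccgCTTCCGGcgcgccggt
Atp5k (complex V, chr5:108434400-108434649, minus strand): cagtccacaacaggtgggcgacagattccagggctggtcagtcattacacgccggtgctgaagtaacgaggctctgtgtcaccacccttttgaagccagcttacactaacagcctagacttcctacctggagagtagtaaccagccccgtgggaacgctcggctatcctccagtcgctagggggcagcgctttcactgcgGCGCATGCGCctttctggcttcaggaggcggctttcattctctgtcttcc

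In the windows of Ndufa11, Cox6a1 and Atp5k, GCGCATGCGC reads the same on both strands, so the core is matched on both. Across the 68 members with a window, the NRF1 core was present in 10 (14.7%), against 2.80% of all 27025 windows. The ETS or GABP site was present in 16 (23.5%) against 9.12%, and the YY1 site in 9 (13.2%) against 2.88%. At least 1 of these 3 motifs was found in 30 member windows (44.1%), against 13.8% of all windows and 17.3% of the 17492 windows of protein-coding genes. By complex this was 14 of 33 in complex I, 2 of 3 in complex II, 3 of 5 in complex III, 3 of 12 in complex IV and 8 of 15 in complex V, and 7 of the 9 YY1 matches were in complex I. The TATA box was present in 2 member windows (2.94%), Ndufa3 and Ndufs7, against 8.12% of all. A match is a description of the letters in a window and says nothing of whether a factor binds there, and missing letters say nothing about a factor either.

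No member passed the test for a difference between guide and control libraries. Of the 82 members, 80 had enough counts to be tested, and the 2 left out were Cox6a2 and Cox8b. edgeR's quasi-likelihood test, adjusted by Benjamini-Hochberg over all 17138 genes tested, called 0 of the 80 members, against 0.344% of all genes (54 higher and 5 lower in guide libraries). At an unadjusted p under 0.05 there were 0 members, against 5.69% of all genes, and the smallest adjusted p of a member was 0.907, for Ndufa10. DESeq2 and limma-voom called 0 members too. At an unadjusted p under 0.05 there were 0 with DESeq2 and 4 with limma-voom, and the share of all genes in those fits is not given. The groups did not overlap for 4 of the 80 members (5%), against 12.1% of all genes. The 95% intervals of all 80 members held 0, 63 of them lay within a 2-fold difference either way, and 20 within a 1.5-fold difference. The median standard error of a member was 0.25 on the log2 scale, against 0.36 over all genes. Because this is bulk RNA from sorted cells, fewer cells of a type and less RNA per cell cannot be told apart.

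The direction was mostly one way but the size was small. The log2 fold change was above 0 for 67 of the 80 members (83.8%), against 48.5% of all genes, with a median of 0.15 against -0.01. In complex I it was above 0 for 32 of 37 (median 0.15), in complex II for 2 of 4 (-0.02), in complex III for 7 of 8 (0.14), in complex IV for 11 of 14 (0.12) and in complex V for 15 of 17 (0.18). This direction depended on single libraries and on their weights. Without control library 3 it was above 0 for 27 of 80 members, with a median of -0.04, and without guide library 2 for 39 of 80, with a median of -0.0018. With all 6 libraries kept and weighted by quality in limma-voom, it was above 0 for 43 of 80, with a median of 0.018.

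**Figure D1:**
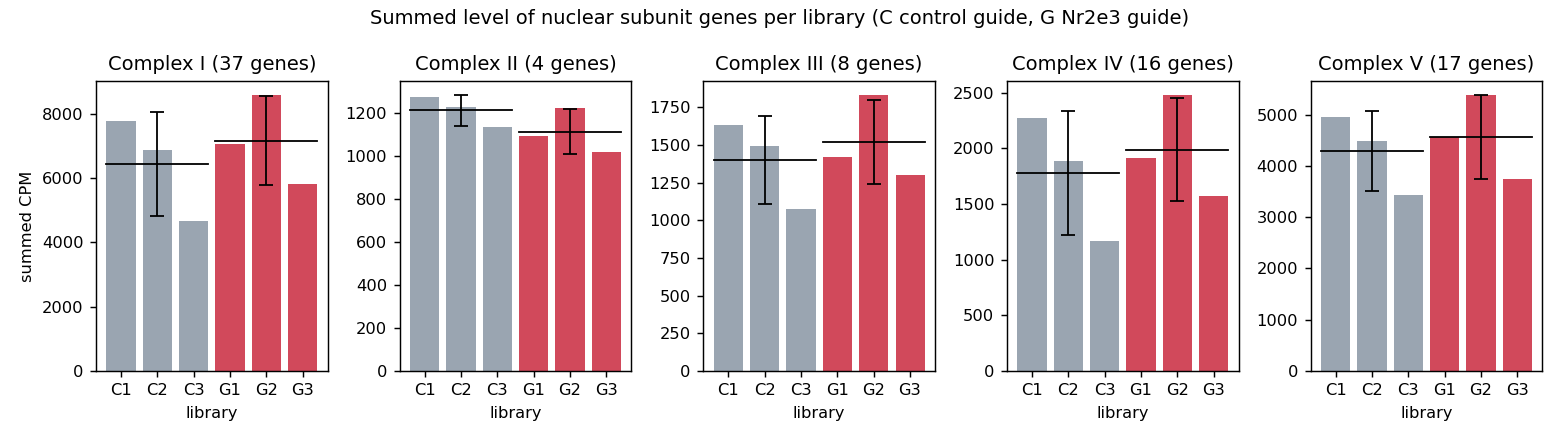
Summed CPM of the nuclear genes of each complex in every library (bars; C1 to C3 control guide, G1 to G3 Nr2e3 guide), with the group mean (line) and SD (error bar, n = 3). Control library 3 is the lowest control in all 5 complexes, guide library 2 the highest guide library, and only complex II has a lower guide than control mean.

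The summed levels of complexes I, III, IV and V also had a higher mean in guide libraries, and that of complex II a lower one. The 37 genes of complex I, which takes electrons from NADH, summed to 7784, 6863 and 4649 CPM in control libraries 1 to 3 and to 7044, 8586 and 5822 CPM in guide libraries 1 to 3. The groups overlapped, with control library 3 the lowest and guide library 2 the highest of the 6, and the log2 ratio of the group means was 0.15. Complex II, which also belongs to the citric acid cycle, summed to 1278, 1230 and 1136 CPM in control and to 1097, 1226 and 1020 CPM in guide libraries, a log2 ratio of -0.12. Guide libraries 1 and 3 lay below every control library, and guide library 2 lay within the control range. Complex III, which passes electrons from coenzyme Q to cytochrome c, summed to 1635, 1491 and 1071 CPM in control and to 1423, 1833 and 1299 CPM in guide libraries, a log2 ratio of 0.12. Complex IV, which reduces oxygen, summed to 2274, 1885 and 1171 CPM in control and to 1913, 2483 and 1569 CPM in guide libraries, a log2 ratio of 0.16. Complex V summed to 4962, 4493 and 3437 CPM in control and to 4571, 5389 and 3741 CPM in guide libraries, a log2 ratio of 0.09. In complexes III, IV and V the groups overlapped too, again with control library 3 lowest and guide library 2 highest. All members together took 1.25 to 1.82% of the gene counts of a library.

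Among the complex I members, the catalytic core has the flavin subunit Ndufv1 and the iron-sulfur subunits Ndufs1, Ndufs7 and Ndufs8 among others. Ndufa10, an accessory subunit of the membrane arm, was at 63.1, 50.9 and 36.2 CPM in control libraries 1 to 3 and at 63.8, 76.2 and 69.1 CPM in guide libraries 1 to 3. Each guide library was above each control library, though guide library 1 and control library 1 were close, and the log2 fold change was 0.48 (SE 0.21, adjusted p = 0.907 in edgeR). Ndufs8 was at 282, 262 and 168 CPM in control and at 308, 328 and 263 CPM in guide libraries (log2 fold change 0.34, SE 0.21). Its guide library 3 was below control library 1. Ndufs1 was at 136, 140 and 134 CPM in control and at 149, 164 and 142 CPM in guide libraries. The groups did not overlap, but the log2 fold change was 0.15 (SE 0.12, adjusted p = 0.995 in edgeR). Ndufv1 was at 491, 466 and 403 CPM in control and at 295, 418 and 442 CPM in guide libraries, where guide library 1 was the lowest of all and the others overlapped the controls. Its log2 fold change of -0.23 (SE 0.18) was the lowest in complex I. Ndufa9, an accessory subunit near the junction of the complex's arms, had a log2 fold change of -0.06 (SE 0.16).

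Levels can be compared between genes only per length, here as CPM per kilobase of the shortest principal transcript of a gene. For Ndufb1, which has no principal transcript, the shortest transcript was used. Some members also have much longer principal transcripts, such as Ndufb2 (4371 bases against 455 used) and Uqcrq (1521 against 405). The orders by level depend on this choice. Ndufa4, first described in complex I and since also placed with complex IV, had 1349 ± 518 CPM per kilobase in control and 1750 ± 673 in guide libraries (SD, n = 3), the highest in its group. Ndufb8, a membrane-arm subunit, came next at 668 ± 168 in control and 696 ± 124 in guide libraries. Ndufa4 was at 809, 669 and 352 CPM in control and 876, 1043 and 453 CPM in guide libraries, so both replicate-3 libraries were the lowest of their group. Ndufb2 was the lowest of complex I at 10.6 ± 5.44 CPM per kilobase in control libraries. Ndufa10, at 24.8 ± 6.67, was the next lowest. Per base of all annotated exons, Ndufa4 stayed first and Ndufb8 came 12th of 37.

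In complex II, Sdha carries the flavin and oxidises succinate, Sdhb holds the iron-sulfur clusters, and Sdhc and Sdhd anchor both in the membrane. Sdha was at 738, 724 and 741 CPM in control libraries 1 to 3 and at 620, 666 and 590 CPM in guide libraries 1 to 3. Each guide library was below each control library, and the log2 fold change was -0.23 (SE 0.12, adjusted p = 0.951 in edgeR). Sdhb was at 174, 176 and 127 CPM in control and at 171, 189 and 161 CPM in guide libraries. The groups overlapped, and the log2 fold change of Sdhb was 0.12 (SE 0.16). Sdhc and Sdhd had log2 fold changes of -0.043 and 0.0029 (SE 0.17 and 0.18). Without Sdha, the member of highest level, the log2 ratio of the summed complex II was 0.027 in place of -0.12. Sdha also had the highest level per length of the 4, 253 ± 3.09 CPM per kilobase in control and 216 ± 13.2 in guide libraries (SD, n = 3), followed by Sdhb at 139 ± 24.5 and 152 ± 12.2. With all annotated exons counted, Sdha stayed first and Sdhb came 3rd.

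In complex III, Uqcrc1 and Uqcrc2 are the large core subunits and Uqcrfs1 is the Rieske iron-sulfur protein. Uqcrc1 was at 290, 293 and 313 CPM in control libraries 1 to 3 and at 150, 346 and 350 CPM in guide libraries 1 to 3. Guide library 1 was below all other libraries, guide libraries 2 and 3 were above all controls, and the log2 fold change was -0.08 (SE 0.30). Without guide library 1 it was 0.22. With sex as a term, which compares that male guide library with the male controls, it was -0.99 (adjusted p = 0.279 in edgeR). Uqcrc2 ran from 197 to 254 CPM in control and from 232 to 278 CPM in guide libraries (log2 fold change 0.10, SE 0.15). Uqcrfs1 was listed at 11.997 to 16.5 CPM in control and 14.8 to 18.8 CPM in guide libraries, with a log2 fold change of 0.20 (SE 0.21). Per kilobase it was the lowest of the 8, at 10.8 ± 1.78 CPM in control libraries, with Uqcr10 next at 33.1 ± 7.03 (SD, n = 3). Whether counting or annotation lowers the counts of these genes, and those of Ndufb2, Cox5a, Cox5b and Atp5d, was not tested, so their place in these orders is uncertain. Of the 50-base stretches of Ndufb2, Cox5a and Cox5b, 33.5%, 32.0% and 25.9% occur in other annotated genes, whereas no such stretch was found for Uqcrfs1, Uqcr10 and Atp5d. Uqcrq and Uqcrh, both small subunits, had the highest levels per length, 671 ± 195 and 481 ± 162 CPM per kilobase in control libraries (SD, n = 3), with SDs that overlap. With all annotated exons counted, Uqcrb came first, Uqcrh 2nd and Uqcrq 4th of the 8.

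Complex IV had the widest range of log2 fold changes, from -0.70 to 0.96, and several of its subunits have isoforms for different tissues. Cox4i1, the widespread form of subunit 4, ran from 402 to 642 CPM in control and from 462 to 673 CPM in guide libraries (log2 fold change 0.08, SE 0.22). Cox4i2, the form known from lung and low oxygen, was at 10.4, 9.41 and 3.29 CPM in control and 4.25, 3.35 and 6.54 CPM in guide libraries. Control libraries 1 and 2 were higher than the rest, and the log2 fold change of -0.70 (SE 0.48; in edgeR, adjusted p = 0.995) was the lowest of the 80 members. Of the muscle forms, Cox6a2 had at most 0.305 CPM and Cox8b at most 0.159 CPM in any library, and Cox7a1 had 1.38 to 4.14 CPM. The testis form Cox6b2 had 0.87 to 2.37 CPM. The widespread forms Cox6b1 and Cox7a2 were at 136 to 238 and 107 to 235 CPM, with log2 fold changes of 0.13 and 0.17. Cox7a2l, a relative that links complexes III and IV, was at 180 to 386 CPM (0.06). Per kilobase in control libraries, Cox4i1 was at 731 ± 169 and Cox4i2 at 10.6 ± 5.28 CPM (SD, n = 3). In the same libraries Cox6b1 was at 302 ± 74.5 and Cox6b2 at 3.98 ± 0.996. Cox7a2 was at 257 ± 89.7 and Cox7a1 at 8.10 ± 2.11. In each of these pairs the widespread form was the higher in every library.

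Cox6a1 and Cox8a varied most among libraries. Cox8a was at 78.3, 45.04 and 25.7 CPM in control libraries 1 to 3 and at 28.9, 161 and 100.1 CPM in guide libraries 1 to 3. Guide libraries 2 and 3 were above every control library and guide library 1 was below control libraries 1 and 2, and the log2 fold change of 0.96 (SE 0.61; in edgeR, adjusted p = 0.995) was the highest of the 80. With sex as a term it was -0.78. Cox6a1 was at 129, 85.3 and 49.5 CPM in control and at 24.99, 159 and 99.1 CPM in guide libraries. Guide library 1 was again the lowest, with a log2 ratio of -2.32 to the other guide libraries for Cox6a1 and -2.13 for Cox8a, and the log2 fold change of Cox6a1 was 0.10 (SE 0.61). Uqcrc1 (-1.21), Cox5b (-0.96), Ndufb2 (-0.86) and Ndufv1 (-0.54) were also low in guide library 1. Cox5a and Cox5b, part of the complex in every tissue, were listed at 6.68 to 8.67 and 9.005 to 21.1 CPM in control libraries. In guide libraries they were listed at 7.62 to 11.8 and 11.2 to 32.4 CPM. Per kilobase they were at 12.3 ± 1.67 and 17.4 ± 6.99 CPM in control libraries (SD, n = 3), below all other members tested in this complex except Cox4i2, Cox7a1 and Cox6b2. Cox4i1 led by level per length, followed by Cox6c at 464 ± 183 CPM per kilobase. With all annotated exons counted, Cox4i1 stayed first and Cox6c came 8th of 16.

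**Figure D2:**
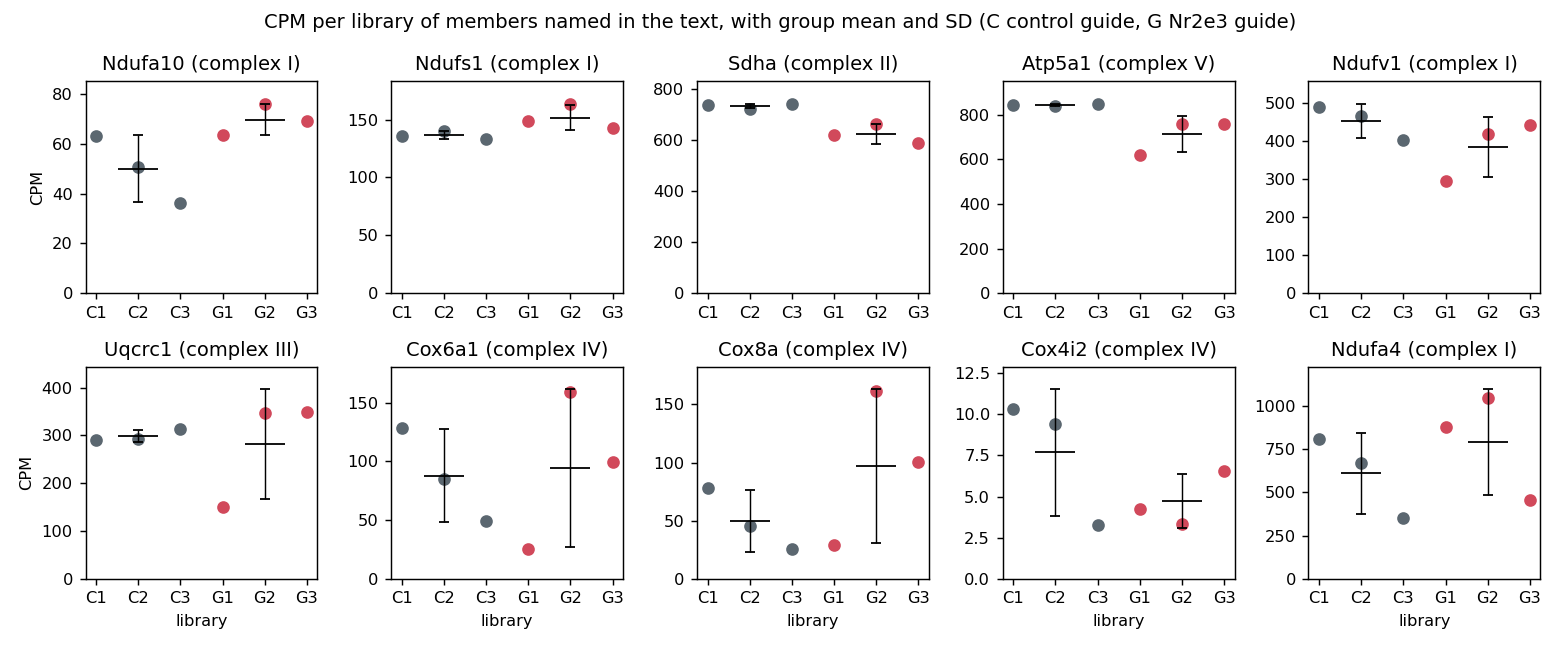
CPM of 10 members in each library (points; C1 to C3 control guide, G1 to G3 Nr2e3 guide), with group mean and SD (n = 3). Ndufa10 and Ndufs1 are higher and Sdha and Atp5a1 lower in every guide library than in any control library, while Uqcrc1, Cox6a1 and Cox8a have their lowest guide value in guide library 1.

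In complex V, the catalytic head is made of Atp5a1 and Atp5b around the shaft subunit Atp5c1, with Atp5d and Atp5e at its foot, and Atp5g1, Atp5g2 and Atp5g3 encode the same ring protein. Atp5a1 was at 845, 840 and 850 CPM in control libraries 1 to 3 and at 620, 761 and 760 CPM in guide libraries 1 to 3. Each guide library was below each control library, and the log2 fold change was -0.24 (SE 0.13, adjusted p = 0.968 in edgeR). Atp5b, its partner in the head, was at 454, 404 and 371 CPM in control and at 432, 463 and 389 CPM in guide libraries. The groups overlapped, and the log2 fold change of Atp5b was 0.06 (SE 0.14). Atp5c1 had a log2 fold change of 0.11 (SE 0.23). Atp5k, a small membrane subunit, was at 66.6, 59.1 and 28.5 CPM in control and at 78.2, 74.9 and 53.2 CPM in guide libraries. The overlap was set by guide library 3, and its log2 fold change of 0.42 (SE 0.32) was the highest of complex V. Atp5d was at 16.2 to 18.1 CPM in control and 17.1 to 27.5 CPM in guide libraries, and per kilobase it was the lowest of complex V at 18.3 ± 1.06 CPM in control libraries (SD, n = 3). The ring genes Atp5g1, Atp5g2 and Atp5g3 had log2 fold changes of -0.05, 0.18 and 0.10 (SE 0.23, 0.18 and 0.21). The counts of Atp5g1 and Atp5g2 are uncertain, since 66.0% and 100% of their 50-base stretches occur in other annotated genes, against 0% for Atp5g3. Those of Atp5o (89.8%), Atp5l (84.8%), Atp5h (66.6%) and Cox7c (53.0%) are uncertain in the same way. Atp5o and Atp5h had the highest levels per length of complex V, 705 ± 184 and 603 ± 181 CPM per kilobase in control libraries, and with all exons counted Atp5c1 came first.

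**Figure D3:**
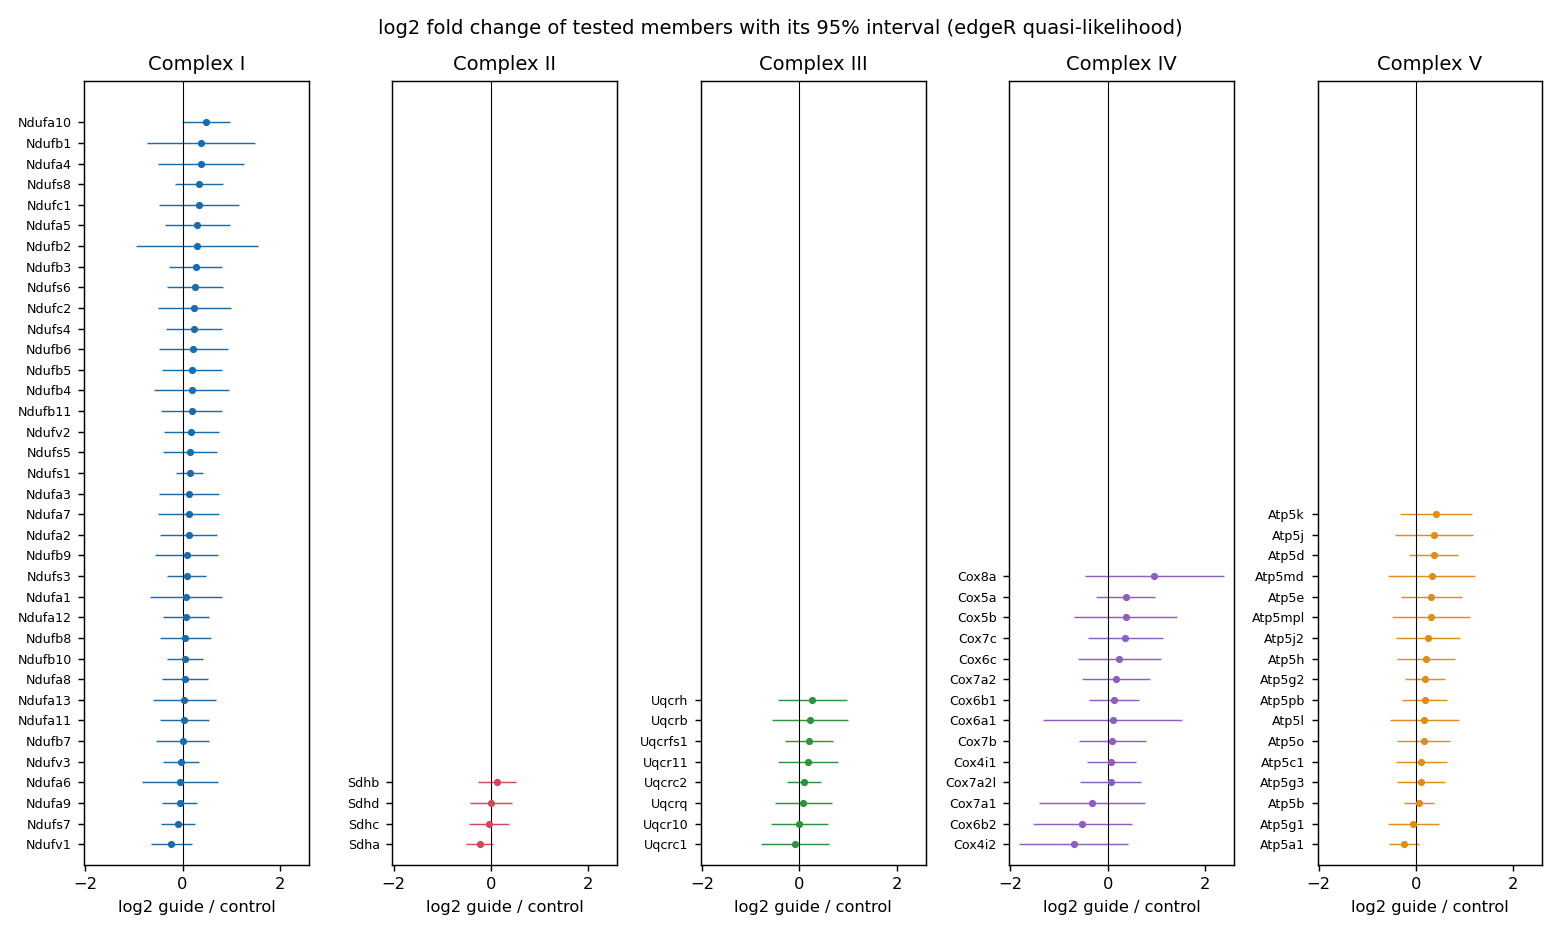
log2 fold change, guide over control, of 79 of the 80 tested members (points) with its 95% interval from edgeR (lines), by complex. All 79 intervals hold 0, 66 of the 79 points lie above 0, and Cox8a and Cox6a1 have the widest intervals in complex IV.

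The same libraries were low or high for most members. Control library 3 was the lowest control for 75 of the 80 tested members, in all 37 of complex I, 3 of 4 of complex II, 7 of 8 of complex III, 13 of 14 of complex IV and 15 of 17 of complex V, against 41.9% of all genes. The exceptions were Sdha, Uqcrc1, Cox7a1, Atp5a1 and Atp5d. Guide library 3 was the lowest guide library for 64 of the 80 (32.4% of all genes). Guide library 2 was the highest guide library for 72 (33.2% of all genes), and control library 1 the highest control for 72 (33.5%). The median log2 ratio of control library 3 to the other controls was -0.74 in complex I, -0.38 in complex II, -0.61 in complex III, -0.91 in complex IV and -0.70 in complex V.

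This library difference went with transcript length, taken again from the shortest principal transcript. Members with a principal transcript of up to 500 bases had a median log2 ratio of -0.84 in control library 3, those of 500 to 750 bases -0.80, of 750 to 1000 bases -0.74, of 1000 to 1500 bases -0.54, of 1500 to 2000 bases -0.34 and of 2000 to 3000 bases -0.02 (4 members). All other genes of these lengths had medians of -0.81, -0.53, -0.37, -0.17, -0.03 and 0.08. Over these 6 classes the medians were less negative in longer ones in both sets, and members lay below other genes in each, by the least among the shortest. The class over 3000 bases held 1 member, Sdhc, at -0.31, against a median of 0.16 in other genes. Across 78 members with a mean of at least 5 CPM, Spearman's rho of length with the ratio was 0.56 in control library 3 and 0.55 in guide library 3. Across 8529 other genes it was 0.29 and 0.10. These are descriptions across genes of the same libraries, which are not independent replicates. Short subunit genes low in control library 3 included Ndufb1 (-1.18), Atp5k (-1.14), Ndufa4 (-1.06), Cox6c (-1.04) and Atp5mpl (-1.04). Some long ones were not low, such as Sdha (0.02), Atp5a1 (0.01) and Uqcrc1 (0.10). Other long ones were low, such as Ndufv2 (-0.73), Ndufa10 (-0.65) and Ndufs4 (-0.65). The cause of this library difference was not tested. The short Atp5g2 was at -0.29. Members are short as a group, with a median transcript of 682 bases and a range of 315 to 3171. GC content went with guide library 3 as well, with a rho of 0.47 in members and 0.52 in other genes.

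**Figure D4:**
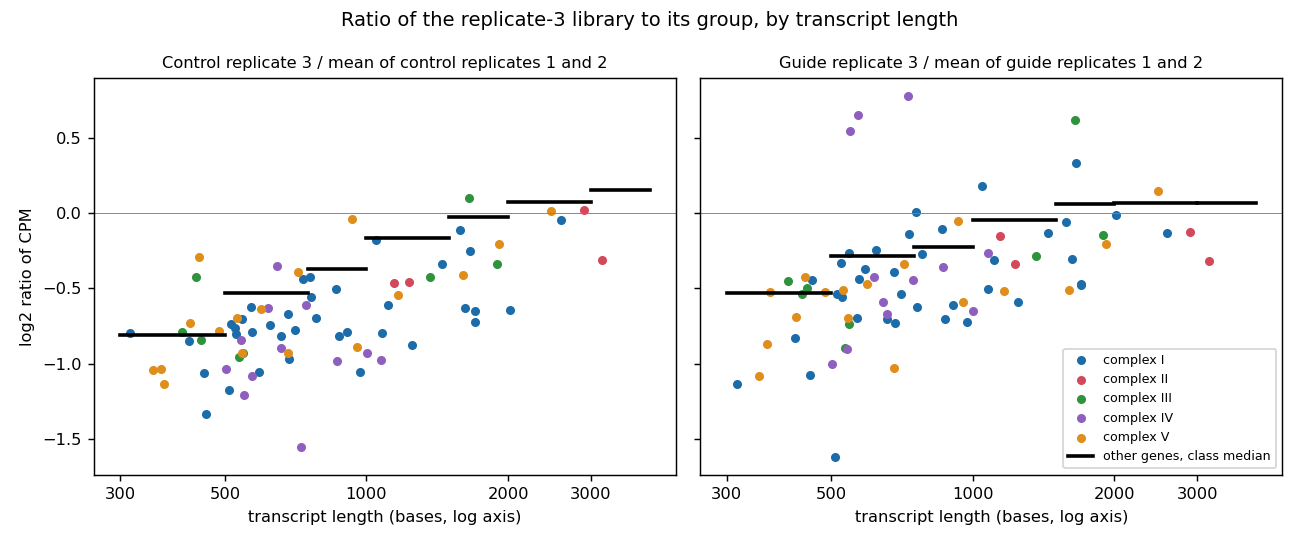
log2 ratio of the replicate-3 library to the mean of the other 2 libraries of its group, against transcript length on a log axis, for 78 members (points, coloured by complex), with the median of other genes in each length class (black lines). In control library 3 the members of up to 500 bases have a median of -0.84 and those of 2000 to 3000 bases -0.02.

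The counts of each library were also adjusted for transcript length and GC content, a setting added after the data were seen. The log2 fold change was then above 0 for 53 of the 80 members, with a median of 0.03. Over all 12727 genes tested in this setting, the median was -0.04. The median standard error of a member became 0.16, and 0 members were called, with 79 of the 12727 genes called. With both replicate-3 libraries left out, 57 of 80 members were above 0, with a median of 0.11 against 0.01 of all genes, and 0 were called. The 4 libraries left then hold 1 from a female, guide library 2.

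The other genes of the system showed no called member in any list. Transcripts of the mitochondrial genome itself, 12 of 13 tested, were all above 0 in log2 fold change, with a median of 0.30. They summed to 26079, 21090 and 11660 CPM in control libraries 1 to 3 and to 25815, 29563 and 12802 CPM in guide libraries 1 to 3, so that both replicate-3 libraries were the lowest of their groups for all 12. Among them CYTB, the mitochondrially encoded core of complex III, had a log2 ratio of 0.18 (SE 0.32), and ND1, a membrane subunit of complex I, one of 0.48 (SE 0.43). ND3 and ND2, further complex I subunits and the 2 of smallest p, stood at 1.94 (SE 0.83) and 0.70 (SE 0.62). ND3 was at 10.4, 9.43 and 3.87 CPM in control and 50.4, 36.9 and 3.53 CPM in guide libraries. ND2 was at 411, 386 and 233 CPM in control and 804, 752 and 115 CPM in guide libraries. For both, guide library 3 was below every control library. The assembly factors, which build the complexes without staying in them, had medians of 0.07 in 16 tested genes for complex I, 0.25 in 4 for complex II, 0.03 in 6 for complex III, 0.10 in 20 for complex IV and -0.03 in 4 for complex V, the last with the ATP synthase inhibitor. The 2 of smallest p were Ndufaf5 at 0.51 and Nubpl at 0.53 for complex I, Sdhaf1 at 0.48 and Sdhaf3 at 0.36 for complex II, Surf1 at 0.20 and Coa4 at 0.31 for complex IV, and Tmem70 at 0.55 and Atpaf2 at -0.14 for complex V, with standard errors of 0.16 to 0.34. For complex III they were Uqcc1 at -0.23 (SE 0.14) and Uqcc2. Uqcc2, an assembly factor for cytochrome b, was at 101, 88.7 and 42.1 CPM in control and 150, 177 and 122 CPM in guide libraries. Each guide library was above each control library, and the log2 fold change was 0.95 (SE 0.32, adjusted p = 0.632 in edgeR).

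Cytochrome c and coenzyme Q genes had a median of 0.10 over 15 tested. Coq8a, a kinase-like protein of coenzyme Q synthesis, stood at -0.57 on the log2 scale (SE 0.19), and Coq5, a methyltransferase of the same pathway, stood at -0.49 (SE 0.18), with adjusted p of 0.665 and 0.771 in edgeR. The 16 regulators had a median of 0.0028, and Nrf1, the nuclear respiratory factor whose core motif is shown above, was at 88.2, 93.7 and 77.1 CPM in control and 55.4, 61.4 and 68.7 CPM in guide libraries. Each guide library was below each control library (log2 fold change -0.48, SE 0.15, adjusted p = 0.541 in edgeR). Esrrb, an orphan receptor of rods linked to energy supply, stood at 0.41 (log2 scale, SE 0.15; edgeR p after adjustment 0.733).

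In the citric acid cycle, 14 genes had a median of -0.14. Idh3a, a subunit of the NAD-linked isocitrate dehydrogenase, was at 311, 282 and 240 CPM in control and 412, 410 and 424 CPM in guide libraries. The groups did not overlap, and the log2 fold change was 0.58 (SE 0.14, adjusted p = 0.26 in edgeR). Of 9 tested carriers and creatine shuttle genes (median -0.10), Ckmt1, the mitochondrial creatine kinase, was at 409, 405 and 335 CPM in control and 278, 260 and 266 CPM in guide libraries. In this list the next smallest p was that of Slc25a3, the phosphate carrier, at 0.16 (SE 0.13). The groups of Ckmt1 did not overlap either (log2 fold change -0.51, SE 0.13, adjusted p = 0.33 in edgeR). Mitochondrial ribosomal proteins had a median of 0.13 over 78 genes, led by Mrpl41 at 0.63 (SE 0.16, adjusted p = 0.35 in edgeR) and Mrps18c at 0.61 (SE 0.30). Cytosolic ribosomal proteins had 0.13 over 80, with Rpl10 at 0.30 (SE 0.17) and Rps2 at 0.34 (SE 0.20). Control library 3 was the lowest control for 68 of the 78 and for all 80 of these, as it was for most members. Subunits and paralogs that the naming pattern leaves out, had a median of 0.28 over 5 tested, with Ndufab1 at 0.39 (SE 0.27) and Dmac2l at 0.28 (SE 0.26).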

How the data were processed

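RNA was extracted with Trizol and copied with a SMARTer Ultra Low kit, per the labels' protocols. The authors deposited a table of raw counts per gene and library. Per the submitters' processing notes, the tools include STAR 2.7.3a, HTSeq 0.12.4, DESeq2 1.42.0 and cutadapt, with build GRCm38 (mm10). Neither the annotation nor the strand setting is given in the sources used. Entries that name no gene held 21.6 to 23.7% of counts and were left out. Exons of 30 members overlap another gene in GENCODE M21, 27 of them on the opposite strand, and reads of such pairs may be counted for either or for neither.

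Counts were fitted with edgeR 4.0.16 in R 4.3.3 (TMM factors, filterByExpr with a count minimum of 10 and a total of 15, glmQLFit, glmQLFTest, group as the only term), adjusted over all genes with a threshold of 0.05. CPM uses the TMM-scaled library size. Intervals are 95%. Replicates are 3 separate animals per group, and replicate pairs differed beyond sampling noise. Reads carry no molecular identifiers, so intervals from counts cover counting error and the spread between animals, not amplification bias. Members, lists and tests were chosen with earlier results of these data known. In each complex, the members named are the called ones, the 3 of smallest p and the 2 of highest CPM per kilobase. Also named are those of highest and lowest log2 fold change with at least 5 CPM, and a fixed set of subunits and isoform families. In each other list they are the called genes or the 2 of smallest p. Other names were chosen after values were seen. For 2 genes picked by this rule, results are not reported here. Alternatives were DESeq2 1.42.0, limma 3.58.1 (voom), other size factors and filters, sex as a term, the replicate number as a block, library size without the 50 most abundant genes, each library left out, both replicate-3 libraries left out and, added after seeing the data, length and GC offsets.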

Additional observations from a re-analysis of the deposited data

How the results depend on the processing

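No member was called under any alternative run, at an adjusted threshold of 0.1 either, and the smallest adjusted p of a member anywhere was 0.143 (Cox4i2 at -1.37, both replicate-3 libraries left out). At an unadjusted p under 0.05 there were 0 members in the main fit and in DESeq2, and 4 with limma-voom. There were 3 without a count filter and 5 without both replicate-3 libraries. The share of all genes at that threshold was 5.69% in the main fit. It is not given for the alternatives, so these counts are not read as a result about the members. Over all genes, 59 calls became 239 with DESeq2, 179 with limma-voom, 155 without a count filter and 6 with sex as a term, and 14 to 89 with a library left out. The medians of complexes ranged over alternatives from -0.065 to 0.31 in complex I, -0.041 to 0.27 in complex III, -0.079 to 0.36 in complex IV and 0.0018 to 0.40 in complex V. That of complex II ran from -0.16 (without guide library 2) to 0.084 (without control library 1) with a library left out, and its summed ratio was 0.027 without Sdha. The cause of these shifts was not tested.

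Replicate numbers name different animals. Deviations of same-numbered libraries correlated at 0.14, -0.14 and 0.054, and the samples were not paired in the main fit. The ratios of guide and control library 3 to their groups had a rho with each other of 0.54 across 78 members. Across 8529 other genes it was 0.33. Whether same-numbered libraries share a batch was not tested. With the replicate block, 32 of all genes and 0 members were called. The median standard error of a member was then 0.15, against 0.25 in the main fit, and the median log2 fold change 0.16. At an unadjusted p under 0.05 there were 5 members, and the share of all genes in that fit is not given. Only Cox6a1 (-0.045) changed sign among the 38 named members tested.

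Of those 38, 16 kept their sign under every alternative that gave them a value, which was all 17 except for Cox6b2, with 16. The sign of the log2 fold change turned for Ndufb8 (-0.077), Uqcrq (-0.068), Cox4i1 (-0.044), Cox7a2l (-0.097), Cox6a1 (-0.56), Atp5c1 (-0.0100) and Atp5g3 (-0.040) with limma-voom, for Cox8a (-0.78), Cox5b (-0.43), Cox6a1 (-1.81) and Atp5g3 (-0.12) with sex as a term, and for Ndufb8 (-0.0077), Cox7a1 (0.23), Cox7a2l (-0.11) and Cox6a1 (-0.21) without both replicate-3 libraries. With length and GC offsets, chosen after seeing the data, it turned for Ndufb8 (-0.0027), Uqcrq (-0.063), Cox4i1 (-0.0022), Cox6a1 (-0.049) and Atp5g3 (-0.032). With a library left out, values ran from -0.17 to 0.033 for Ndufa9, -0.13 to 0.20 for Ndufb8, -0.018 to 0.20 for Sdhb, -0.20 to 0.058 for Sdhc, -0.0038 to 0.18 for Uqcrc2, -0.14 to 0.26 for Uqcrq, -0.27 to 0.22 for Uqcrc1, -0.21 to 0.69 for Cox5b, -0.037 to 0.53 for Cox6c, -0.056 to 0.29 for Cox6b1, -0.077 to 0.42 for Cox7a2, -0.10 to 0.21 for Cox4i1, -0.20 to 0.29 for Cox7a2l, -0.50 to 0.55 for Cox6a1, -0.023 to 0.40 for Atp5h, -0.044 to 0.31 for Atp5o, -0.086 to 0.26 for Atp5c1, -0.14 to 0.21 for Atp5g3, -0.0046 to 0.14 for Atp5b and -0.24 to 0.091 for Atp5g1. With 3 animals a group, differences of the size of the medians above were not detectable gene by gene.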
